A study of Mus musculus with 8 samples.

Results

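The 9 genes examined here encode the factors at the head of the oxidative program of muscle. They are the coactivators PGC-1α (*Ppargc1a*) and PGC-1β (*Ppargc1b*), the estrogen-related receptors ERRα (*Esrra*), ERRβ (*Esrrb*) and ERRγ (*Esrrg*), the fatty acid receptors PPARα (*Ppara*) and PPARδ (*Ppard*), nuclear respiratory factor 1 (*Nrf1*), and the mitochondrial transcription factor TFAM (*Tfam*). They were taken by gene symbol, with earlier results of these data known, and are 9 of the 27041 rows of the count table. All 9 had a mean count above 50 per library and were among the 11364 rows tested. Bulk RNA-seq was performed on muscle of 9-week-old male mice on a C57BL/6J background, in which LSD1, a histone demethylase encoded by *Kdm1a*, was or was not removed from myofibers. All mice carried floxed *Kdm1a* alleles (LSD1 L2/L2). Control mice (Ctrl) had no Cre, and LSD1skm-/- mice also carried HSA-Cre, a recombinase driven by the skeletal actin promoter, which is active in myofibers, so that other cells of the muscle keep the gene. The study's text gives gastrocnemius as the muscle, and the labels give skeletal muscle. Counts were read for 6 of the 8 labelled libraries, 4 Ctrl and 2 LSD1skm-/-. LSD1skm-/- replicates 3 and 4 were not analysed here. In RNA of whole muscle, fewer cells of a type and less RNA per cell cannot be told apart.

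PGC-1 coactivators do not bind DNA themselves. They dock on nuclear receptors such as the ERR and PPAR proteins, and on NRF1, and recruit the enzymes that open chromatin and start transcription at genes of the respiratory chain, the citric acid cycle and fatty acid oxidation. ERR receptors depend on such coactivators, and PPAR receptors bind fatty acids and pair with RXR receptors. NRF1 acts at promoters of nuclear genes for mitochondrial proteins, among them *Tfam*, whose protein enters mitochondria, packs their DNA and starts its transcription. In muscle this network is best known for its response to exercise, fasting and cold, and ERRγ and PGC-1α are known to favor slow, oxidative fibers. The comparison addresses whether the transcripts of these factors and of the genes around them differ between muscle with and without LSD1 in its myofibers.

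Library totals lay between 30654828 and 41278769 counts. *Kdm1a* itself had 22.95, 21.96 and 28.06 CPM (TMM-normalized counts in each 1e6 reads) in Ctrl replicates 1 to 3, against 2.962 and 3.483 CPM in LSD1skm-/- muscle. At 3.658 CPM, the library labelled Ctrl replicate 4 went against its label. Comparisons below follow the labels, and the values of the members and the medians of the pathway gene lists are also given without that library. Tests of cell type markers and of some single genes are given with all libraries only. With all 6 libraries, an unadjusted p-value under 0.05 in edgeR's quasi-likelihood test was reached by 1011 tested genes (8.9%), and an adjusted one by 0, against 46 in DESeq2. Without the library labelled Ctrl replicate 4 these shares in edgeR were 20.2% unadjusted and 5.39% adjusted. Myofiber transcripts dominated every library, with 989354 to 1585733 reads on *Acta1*, the skeletal actin gene.

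Per kilobase of exon, *Esrra* was the most abundant of the 9 transcripts in every library. Its median over the 6 libraries was 28.9 CPM per kilobase, with values from 23.7 to 29.95. *Tfam* followed at 11.1 (10.05 to 11.4) and did not overlap with *Esrra*. *Ppargc1a* had a median of 7.80 CPM per kilobase and ran from 5.12 to 13.8, so it overlapped with *Tfam* above it and with *Ppard* below it, at 4.99 (3.72 to 5.94). *Esrrg* had a median of 3.91 (3.49 to 6.46) and overlapped with *Ppard*. The last 4 genes formed a separate lower tier. *Esrrb* was at 1.25 CPM per kilobase (0.886 to 1.68), *Ppargc1b* also at 1.25 (1.07 to 1.84), *Ppara* at 1.01 (0.733 to 2.28) and *Nrf1* at 0.972 (0.927 to 1.02). Neighbors in this order overlapped, while the range of *Nrf1* ended below that of *Ppargc1b*. By this measure ERRα was the main ERR transcript of this muscle and PGC-1α the main PGC-1 transcript. Within each library *Ppargc1a* had between 6.92 and 12.4 times the CPM of *Ppargc1b*, before any correction for length. The order depends partly on the length taken for each gene. With the longest transcript in place of all exons, *Ppard*, at 10.07 CPM per kilobase, came before *Ppargc1a*, at 7.96, and *Nrf1*, at 2.47, came before *Esrrb*, at 1.76.

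The RefSeq promoters of the members (GRCm38.p6, 250 bases before and 50 after a start site) were searched on both strands for 4 short motifs. These were GCGCATGC, the core of the palindrome that NRF1 binds, TNAAGGTCA, an ERR site, TGACGTCA, a cyclic AMP response element, and ACTTCCGG, a site for the ETS factor GABP. In all, 8 of the 9 genes, all but *Ppargc1b*, had an entry, with 13 promoters. The NRF1 core was found in *Ppara* and *Esrra*. In *Ppara* it was read on both strands, at bases -31 to -24 and, overlapping, at -29 to -22 from the start, which makes the complete palindrome, and in *Esrra* it lay on the minus strand of the gene at -34 to -27. The GABP site was found once, in *Tfam*, on the minus strand of the gene at -47 to -40. The ERR site and the cyclic AMP response element were not in any of these windows. Of all 32851 promoters in the same table, 2.71% held the NRF1 core, 1.28% the ERR site, 1.79% the cyclic AMP response element and 3.89% the GABP site. Bases from the 120 before the start are shown 5′ to 3′, cut back where GENCODE places an exon, for the 3 genes with a match, with the matched letters in capitals, and for both starts of *Esrrb*, the gene with the clearest difference between the groups, which had no match. For *Tfam*, whose window lies in an exon of a longer GENCODE transcript, only 30 bases around the match are given.
Ppara, chr15:85735714-85735775, plus strand: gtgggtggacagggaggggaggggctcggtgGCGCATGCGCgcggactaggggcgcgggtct
Esrra, chr19:6921814-6921928, minus strand: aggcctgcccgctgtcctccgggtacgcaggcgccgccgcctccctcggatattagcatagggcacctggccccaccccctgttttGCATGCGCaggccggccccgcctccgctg
Tfam, chr10:71238073-71238102, minus strand: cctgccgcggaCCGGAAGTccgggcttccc
Esrrb, first start, chr12:86360997-86361116, plus strand: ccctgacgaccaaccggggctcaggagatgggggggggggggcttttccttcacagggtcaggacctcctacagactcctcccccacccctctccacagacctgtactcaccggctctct
Esrrb, second start, chr12:86421524-86421643, plus strand: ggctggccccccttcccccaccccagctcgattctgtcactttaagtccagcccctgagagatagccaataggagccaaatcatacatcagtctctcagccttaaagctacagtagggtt
Reads were counted per gene, so transcripts from the *Esrrb* starts, or from the 4 *Esrrg* starts, are summed.

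*Esrrb* was the only member whose LSD1skm-/- libraries both lay above all Ctrl libraries. ERRβ is best known from stem cells, placenta and the inner ear, and its gene spans positions 86361117 to 86521628 of chromosome 12 on the plus strand (GRCm38). Its levels were 6.71, 5.36 and 5.74 CPM in Ctrl replicates 1 to 3, 8.44 CPM in the library labelled Ctrl replicate 4, and 9.86 and 10.16 CPM in LSD1skm-/- replicates 1 and 2. These rest on 174 to 382 reads per library. The groups did not overlap, as for 17.8% of all tested genes with all libraries. The library labelled Ctrl replicate 4 was the highest of the Ctrl libraries and the nearest to the LSD1skm-/- ones. The mean was 6.56 ± 1.37 CPM over the 4 Ctrl libraries (SD) and 10.0 ± 0.208 CPM over the 2 LSD1skm-/- libraries, a fold of 1.52 in edgeR's fit. The log2 fold change was 0.61 (standard error 0.19, 95% interval 0.16 to 1.05), with an unadjusted p-value of 0.0145 and an adjusted p-value of 0.557 in edgeR's quasi-likelihood test. Without the library labelled Ctrl replicate 4 it rose 1.69-fold, by 0.75 on the log2 scale (standard error 0.14, interval 0.42 to 1.09), with an adjusted p-value of 0.0264 in the same test. Still without that library, the call was kept with DESeq2 (adjusted p = 0.00196), with scaling by library size alone (0.0151 in edgeR) and with no filter on low counts (0.000719 in edgeR). It was also kept when Ctrl replicate 1 was left out as well (adjusted p = 0.0459 in edgeR), but the adjusted p-value was 0.0721 without Ctrl replicate 2, 0.0613 without Ctrl replicate 3, 0.102 without LSD1skm-/- replicate 1 and 0.166 without LSD1skm-/- replicate 2. The log2 fold change stayed between 0.69 and 0.85 in these 8 fits, which were added after the *Esrrb* values had been seen.
*Esrrb* has no exon that overlaps another gene, and none of the 50-base stretches of its transcripts occurs in another gene's transcripts. Markers of other cells moved in the same libraries. The summed CPM of 6 fibroblast genes was 425 to 463 in Ctrl replicates 1 to 3, 637 in the library labelled Ctrl replicate 4, and 592 and 690 in LSD1skm-/- muscle, and 4 of the 6 reached an unadjusted p-value of 0.05 with all libraries. The 4 red cell genes summed to 25.4 to 47.3 CPM in Ctrl, and to 59.5 and 60.5 CPM in LSD1skm-/- muscle, and all 4 reached an unadjusted p-value of 0.05. Other lists went the other way. The 7 adipocyte genes summed to 172 to 491.5 CPM in Ctrl, most in the library labelled Ctrl replicate 4, and to 166 and 177.5 CPM in LSD1skm-/- muscle, and 5 of the 6 tested were lower with an unadjusted p-value under 0.05. Ctrl replicate 3 had the lowest sum of Ctrl. Its *Adipoq*, at 0.783 CPM, was nearer to LSD1skm-/- muscle (0.126 and 0.558 CPM) than to the other Ctrl libraries (9.70 to 19.6 CPM). The 6 endothelial genes summed to 162 to 211 CPM in Ctrl and to 145 and 144 CPM in LSD1skm-/- muscle, where 5 were lower, 2 of them with an unadjusted p-value under 0.05. With all libraries, 8.9% of all tested genes reached that p-value, in either direction. Whether these cells have a part in the *Esrrb* difference was not tested.

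**Figure D1:**
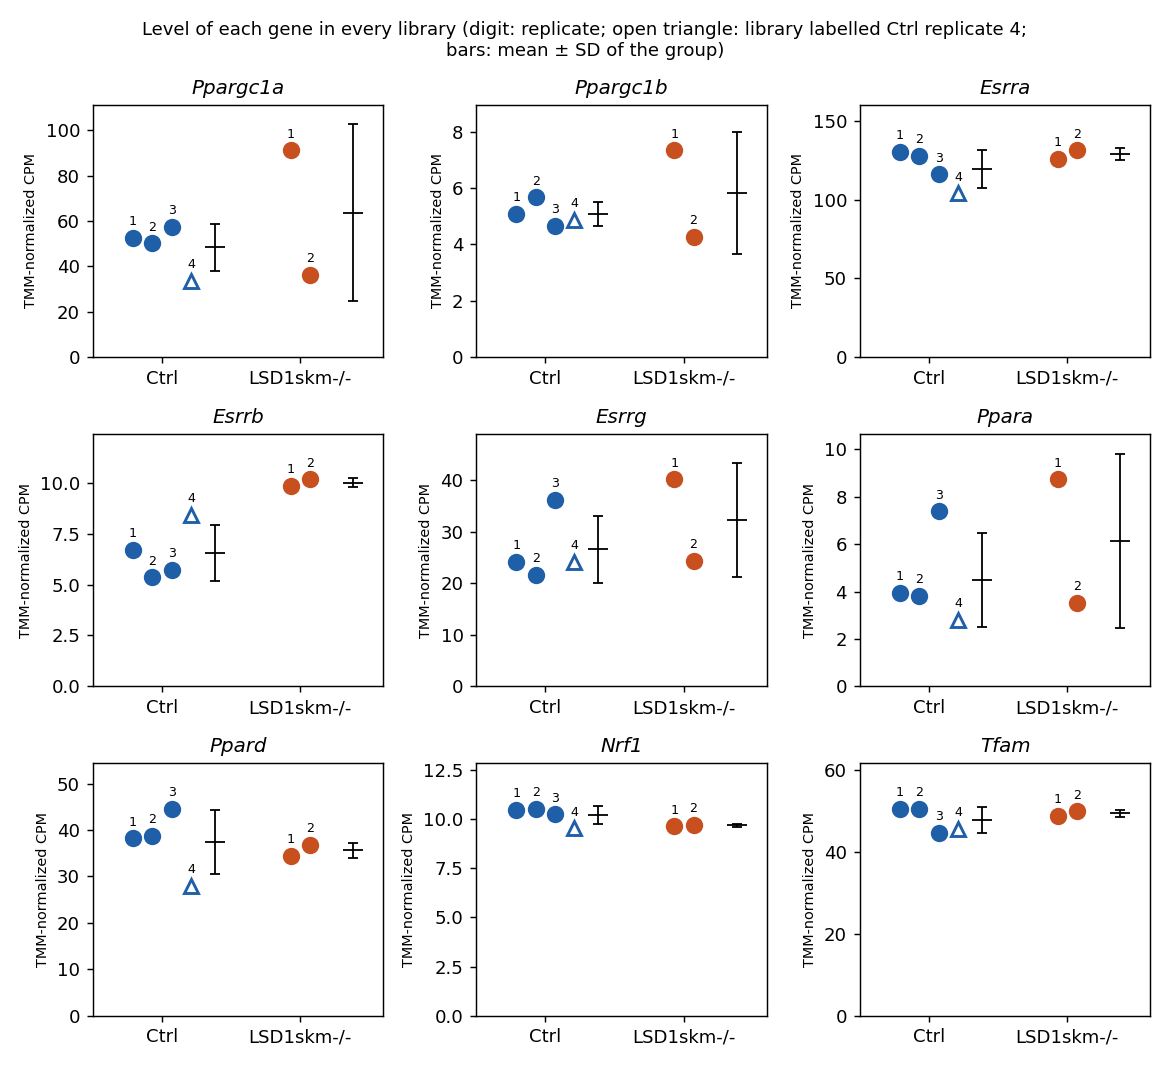
TMM-normalized CPM (vertical axes, from 0) of the 9 genes in each of the 4 Ctrl and 2 LSD1skm-/- libraries, with the mean ± SD of each group as black bars. For *Esrrb* both LSD1skm-/- points (9.86 and 10.16 CPM) lie above every Ctrl point, and for *Ppargc1a*, *Ppara* and *Esrrg* the spread within a group is wider than the distance between groups.

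For the coactivators, the LSD1skm-/- libraries differed more from each other than the group means did. *Ppargc1a* lies on the minus strand of chromosome 5 (51454250 to 51567726). It was at 52.7, 50.15 and 57.4 CPM in Ctrl replicates 1 to 3, 33.7 CPM in the library labelled Ctrl replicate 4, and 91.25 and 36.3 CPM in LSD1skm-/- replicates 1 and 2. LSD1skm-/- replicate 1 was thus the highest of all and LSD1skm-/- replicate 2 was lower than Ctrl replicates 1 to 3, a ratio of 2.51 within the genotype. The log2 fold change was 0.39 (standard error 0.35), with an interval from -0.41 to 1.20, and it passed no threshold (unadjusted p = 0.289, adjusted p = 0.716, edgeR's quasi-likelihood test). In linear terms the interval runs from 0.752 to 2.30 times the Ctrl level. Leaving out the library labelled Ctrl replicate 4 gave 0.26 (interval -0.51 to 1.02). Leaving out LSD1skm-/- replicate 1 turned the value to -0.42 and leaving out LSD1skm-/- replicate 2 raised it to 0.91. PGC-1α is also abundant in brown fat. Of the markers of that tissue, *Ucp1* had 0 to 2 reads in every library, whereas *Cidea* had 39 to 351, at 1.13 to 8.02 CPM in Ctrl and 5.04 and 5.26 CPM in LSD1skm-/- muscle, and the part of such cells was not tested.
*Ppargc1b* (chromosome 18, 61298136 to 61400431, minus strand) encodes the close relative of PGC-1α that responds less to exercise and fasting. It varied less, at 4.67 to 5.67 CPM in the 4 Ctrl libraries, and at 7.34 and 4.28 CPM in LSD1skm-/- replicates 1 and 2, the highest and the lowest values of all. Its log2 fold change was 0.19 (interval -0.33 to 0.72, adjusted p = 0.789 in edgeR's test), or 0.18 without the library labelled Ctrl replicate 4, and it turned to -0.25 without LSD1skm-/- replicate 1. Both coactivators were therefore highest in the same LSD1skm-/- library.

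*Esrra* and *Esrrg*, the ERR genes with the higher levels, did not separate the groups. *Esrra* (chromosome 19, 6910977 to 6921813, minus strand), a receptor that PGC-1α both binds and induces, had 130.3, 127.8, 116.1 and 104 CPM in Ctrl, and 126 and 131.4 CPM in LSD1skm-/- muscle. The LSD1skm-/- values lay among or just above those of Ctrl replicates 1 to 3. Its log2 fold change of 0.11 (standard error 0.12) had a narrow interval of -0.17 to 0.38, or 0.888 to 1.305-fold (adjusted p = 0.779, edgeR's test), and was 0.05 without the library labelled Ctrl replicate 4. Of its 50-base stretches, 1.49% also occur in *Trmt112* or *Mir6990*. Exons of both genes overlap those of *Esrra*, *Trmt112* on the opposite strand and *Mir6990* on the same strand. The strand setting of the counting is not given in the sources used here.
*Esrrg* (chromosome 1, 187608791 to 188214885, plus strand) was at 24.1, 21.7, 36.2 and 24.2 CPM in Ctrl, and at 40.1 and 24.4 CPM in LSD1skm-/- replicates 1 and 2. Ctrl replicate 3 and LSD1skm-/- replicate 1 stood above the other 4 libraries, which lay within 21.7 to 24.4 CPM whatever their group. The log2 fold change was 0.28 (standard error 0.25, interval -0.31 to 0.87, adjusted p = 0.723 in edgeR's test). Setting aside the library labelled Ctrl replicate 4 gave 0.24, and the value was -0.13 without LSD1skm-/- replicate 1. Contractile genes of slow fibers, which ERRγ and PGC-1α are known to favor, were lower in LSD1skm-/- muscle. The 8 genes of that list summed to 1034 to 2074 CPM in Ctrl and to 444 and 797 CPM in LSD1skm-/- muscle, and 7 were lower with an unadjusted p-value under 0.05, against 8.9% of all tested genes in either direction. LSD1skm-/- replicate 1, with the highest *Esrrg* and *Ppargc1a*, had the lowest sum of the slow fiber genes. Within Ctrl, replicate 3, with the highest *Esrrg* of Ctrl, had the highest sum (2074 CPM). Ctrl replicate 2, with the lowest *Esrrg*, had the lowest sum of Ctrl (1034 CPM). Ctrl replicate 1 and the library labelled Ctrl replicate 4 had sums of 1241 and 1192 CPM at nearly the same *Esrrg* level. The latter had the lowest *Ppargc1a* of Ctrl (33.7 CPM) but not the lowest sum. Whether these levels and the slow fiber genes are related was not tested.

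*Ppara* was the member that varied most between libraries. PPARα drives fatty acid oxidation during fasting, and its gene lies on the plus strand of chromosome 15 (85734983 to 85802819). It was at 3.94, 3.82, 7.39 and 2.81 CPM in Ctrl, and at 8.73 and 3.54 CPM in LSD1skm-/- replicates 1 and 2, from 123 to 277 reads. As for *Esrrg*, Ctrl replicate 3 and LSD1skm-/- replicate 1 were the high libraries, and the highest was 3.10 times the lowest. With a log2 fold change of 0.45 and a standard error of 0.45, *Ppara* had the widest interval of the 9 genes, -0.59 to 1.49 (adjusted p = 0.751, edgeR's test). Leaving out the library labelled Ctrl replicate 4 gave 0.27, and leaving out LSD1skm-/- replicate 1 gave -0.35.
*Ppard* (chromosome 17, 28232700 to 28301474, plus strand), the PPAR that is most abundant in muscle fibers, was at 38.2, 38.75, 44.6 and 28.0 CPM in Ctrl, and at 34.5 and 36.8 CPM in LSD1skm-/- muscle. The LSD1skm-/- libraries lay below Ctrl replicates 1 to 3 and above the library labelled Ctrl replicate 4, which was the lowest. With all libraries the log2 fold change was -0.07 (interval -0.48 to 0.34, adjusted p = 0.909), and without that library -0.18 (interval -0.45 to 0.08, adjusted p = 0.421), both from edgeR's test.

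*Nrf1* and *Tfam* were the steadiest of the 9 genes. *Nrf1* (chromosome 6, 30047988 to 30153458, plus strand) was at 10.47, 10.54, 10.26 and 9.53 CPM in Ctrl, and at 9.64 and 9.73 CPM in LSD1skm-/- muscle. The libraries labelled LSD1skm-/- were the lowest but for the one labelled Ctrl replicate 4, and the full range from lowest to highest was 1.105-fold. Its log2 fold change was -0.07 (standard error 0.11, interval -0.34 to 0.19, adjusted p = 0.839, edgeR's test), which leaves room for a fall to 0.792 of the Ctrl level and for a rise to 1.14 times it. Without the library labelled Ctrl replicate 4 the value was -0.10 (adjusted p = 0.650, edgeR's test).
*Tfam* (chromosome 10, 71225464 to 71238280, minus strand) was at 50.46, 50.37, 44.6 and 45.6 CPM in Ctrl, and at 48.7 and 49.85 CPM in LSD1skm-/- muscle, inside the Ctrl range. The interval of its log2 fold change ran from -0.19 to 0.28, or 0.879 to 1.21-fold, and the estimate was 0.05 with all libraries and 0.03 without the one labelled Ctrl replicate 4.

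**Figure D2:**
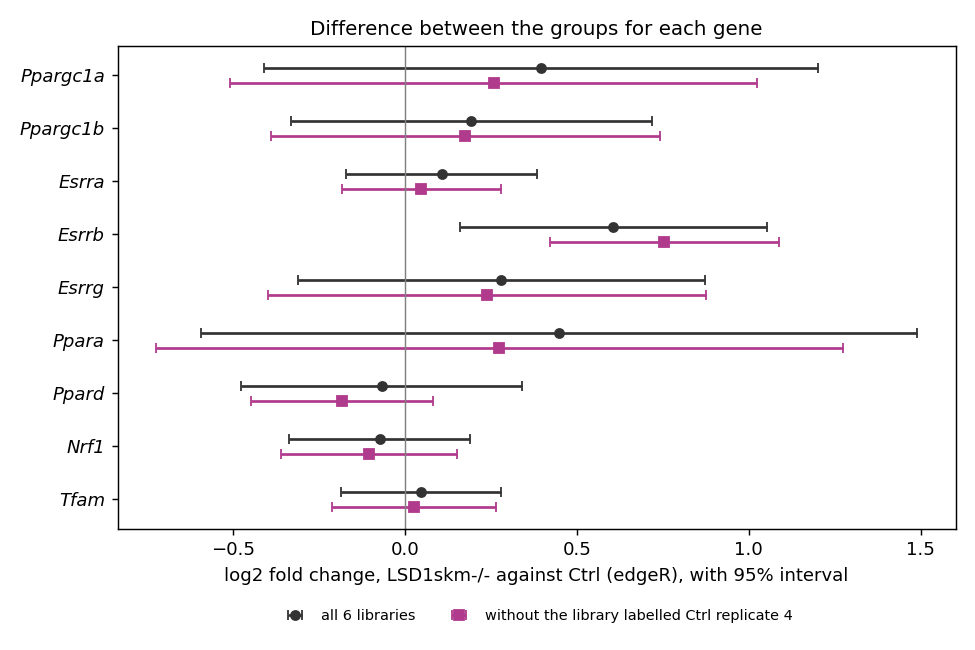
Log2 fold change of LSD1skm-/- against Ctrl muscle (horizontal axis) with its 95% interval from edgeR's fit, for all 6 libraries (circles) and without the library labelled Ctrl replicate 4 (squares). The intervals of *Esrrb* (0.16 to 1.05 with all libraries) lie above 0, and those of the other 8 genes include 0 in both fits.

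Counted together, 7 of the 9 genes had a fold change above 0 and 2, *Ppard* and *Nrf1*, below 0, in both comparisons. The median log2 fold change of the 9 was 0.19 with all libraries and 0.18 without the library labelled Ctrl replicate 4, against -0.01 for all tested genes in both cases. One gene of the 9, *Esrrb*, reached an unadjusted p-value of 0.05 with all libraries, as did 8.9% of the genes tested, and the same gene was the only one to pass an adjusted p-value of 0.05 without the library labelled Ctrl replicate 4, where 5.39% did. Groups did not overlap for 1 of the 9 genes with all libraries, against 17.8% of all tested genes, and for 3 (*Esrrb*, *Ppard* and *Nrf1*) without the library labelled Ctrl replicate 4, against 37.7%. These shares are near the background and are no result about the 9 genes as a group.

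**Figure D3:**
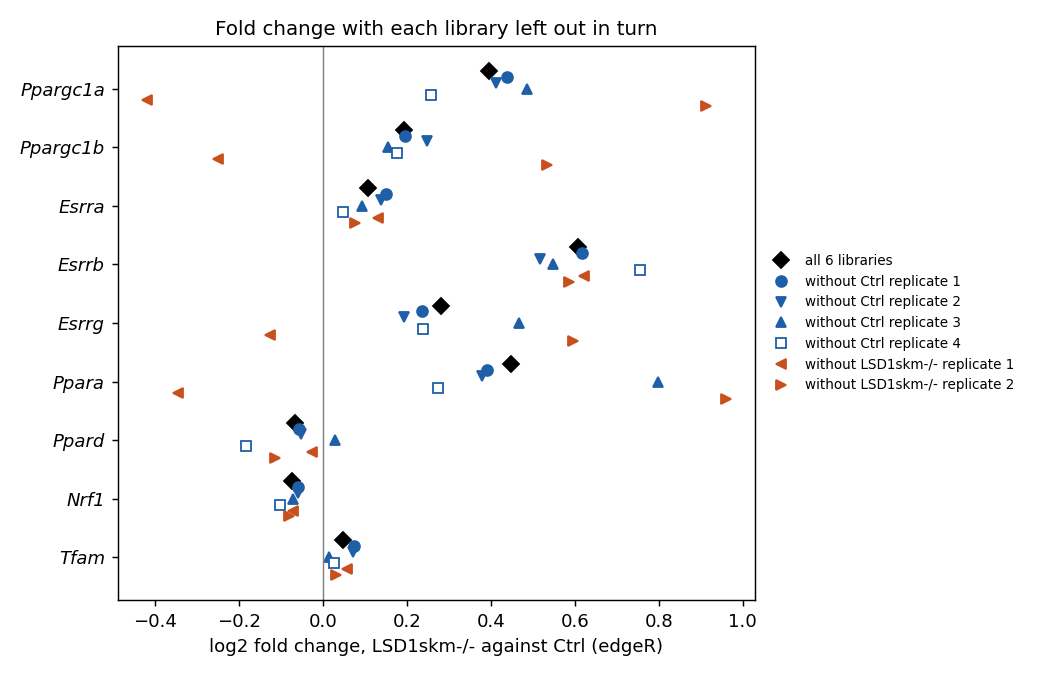
Log2 fold change of LSD1skm-/- against Ctrl muscle (horizontal axis, edgeR) of each gene with all 6 libraries (diamonds) and with each library left out in turn. *Ppargc1a* moves from -0.42 to 0.91 with the LSD1skm-/- library that is left out, whereas *Esrrb* stays between 0.52 and 0.75 and *Nrf1* between -0.10 and -0.06.

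The genes that varied most tended to vary together. *Ppargc1a* and *Ppara* had the same order over the 6 libraries, from the library labelled Ctrl replicate 4 at the bottom, through LSD1skm-/- replicate 2, to LSD1skm-/- replicate 1 at the top. Pearson's r of their log2 CPM was 0.897 (exact permutation p = 0.0181, 0.386 after adjustment over the 36 pairs of members) and Spearman's rho was 1 (exact permutation p = 0.00278, the smallest that 6 libraries allow, 0.1 after adjustment). Without the libraries farthest from the median of *Ppargc1a*, the one labelled Ctrl replicate 4 and LSD1skm-/- replicate 1, r was 0.668. *Esrrg* and *Ppara* had an r of 0.934 (exact permutation p = 0.0306, adjusted 0.386) and a rho of 0.543 (exact permutation p = 0.297, adjusted 0.914). That relation rests on Ctrl replicate 3 and LSD1skm-/- replicate 1, since r was -0.382 without them. *Esrra* and *Tfam* had an r of 0.850 (exact permutation p = 0.0403, adjusted 0.386) and a rho of 0.771 (exact permutation p = 0.103, adjusted 0.914), with r at 0.615 without Ctrl replicate 3 and the library labelled Ctrl replicate 4. No pair passed an adjusted p-value of 0.05. Neither group has 6 libraries, and no correlation within a group is given.
As a description over the same 6 libraries, the tested genes most like *Ppargc1a* were *Vcpip1* (r = 0.989), *Skil* (0.986) and *Hcfc1* (0.982). Those most like *Esrrg* were *Iqgap2* (0.988), *Sec24a* (0.986) and *Tmem129* (0.985), those most like *Esrra* were *Sod2* (0.985), *Mob4* (0.981) and *Ccdc51* (0.980), and those most like *Nrf1* were *Ptdss2* (0.995), *Ifrd1* (0.994) and *Stk11* (0.992). With 6 points such values are common, and between 47 and 337 tested genes had an r above 0.9 with each of these 4 members.

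**Figure D4:**
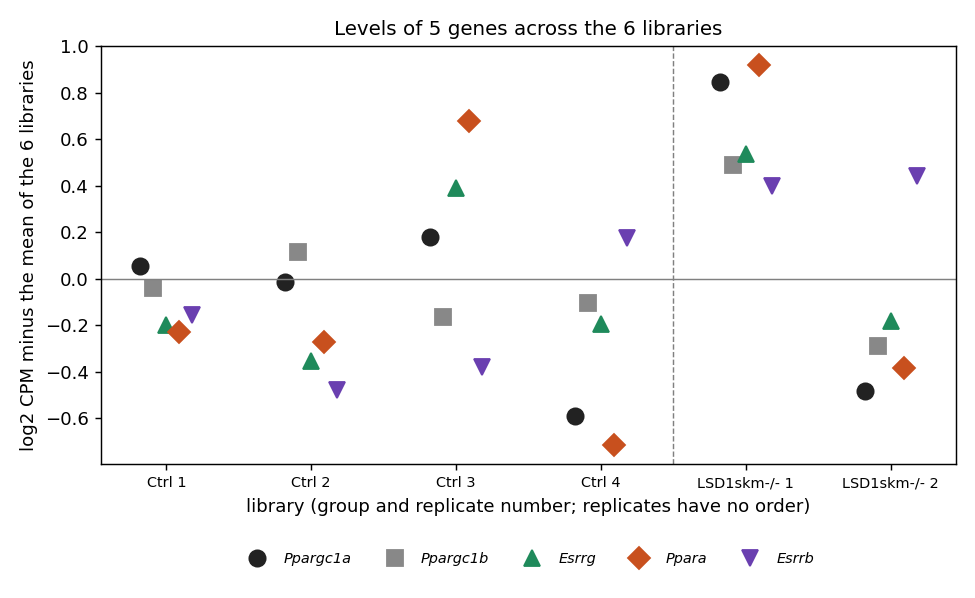
Log2 CPM of *Ppargc1a*, *Ppargc1b*, *Esrrg*, *Ppara* and *Esrrb* in each library, as the difference from the gene's mean over the 6 libraries (vertical axis). *Ppargc1a*, *Esrrg* and *Ppara* are highest in LSD1skm-/- replicate 1, *Esrrg* and *Ppara* are also high in Ctrl replicate 3, and only *Esrrb* is above its mean in both LSD1skm-/- libraries.

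Partners and regulators of these factors were examined next, as a list of 40 genes, of which 39 were tested. With all libraries 10 were higher and 29 lower in LSD1skm-/- muscle, the median being -0.10 on the log2 scale against -0.01 for all tested genes. An unadjusted p-value of 0.05 was reached by 2 of them in edgeR's test, 1 in each direction, against 8.9% of all tested genes. With the library labelled Ctrl replicate 4 set aside, 8 were higher, the median was -0.14, and 2 higher and 5 lower genes reached that p-value, against 20.2% of all genes tested. *Sirt3*, a mitochondrial deacetylase, averaged 19.7 ± 1.94 CPM over the 4 Ctrl libraries (SD) and 24.7 ± 1.298 CPM over the 2 LSD1skm-/- libraries, and *Hdac5*, a histone deacetylase that holds MEF2 factors in check, was at 51.9 ± 4.11 and 42.5 ± 5.30 CPM. Both had an adjusted p-value of 0.557 in edgeR's test. The log2 fold change of *Nrip1*, a corepressor of nuclear receptors that restrains oxidative genes in muscle, was -0.73 with all libraries and -0.95 without the library labelled Ctrl replicate 4 (standard error 0.23, adjusted p = 0.0581, edgeR's test). Its levels were 100.5, 60.6 and 93.6 CPM in Ctrl replicates 1 to 3, 35.1 CPM in the library labelled Ctrl replicate 4, and 48.7 and 38.9 CPM in LSD1skm-/- muscle. In the same comparison *Prkaa1*, a catalytic subunit of AMP-activated kinase, was at 0.31 (unadjusted p = 0.0316), the calcineurin gene *Ppp3ca* at -0.34 (unadjusted p = 0.0213) and the acetyltransferase gene *Crebbp* at -0.40 (unadjusted p = 0.0417), all from edgeR's test. *Mef2c*, which encodes a MEF2 factor and is named for completeness outside the rule for named genes, was at -0.48 (unadjusted p = 0.00916, edgeR's test). In neither comparison did a gene of this list pass after adjustment. The median of the list was -0.21 without LSD1skm-/- replicate 1 and 0.01 without LSD1skm-/- replicate 2.

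Of 26 genes known as targets of PGC-1α acting with ERR receptors, 22 were higher in LSD1skm-/- muscle and 4 lower, and the median was 0.12 on the log2 scale. Of all tested genes, 48.6% were higher. An unadjusted p-value of 0.05 was reached by 4 of them with all libraries (edgeR's test), all higher, against 8.9% of the genes tested. With the library labelled Ctrl replicate 4 set aside, 18 were higher, the median was 0.09, and 4 higher genes and 1 lower gene reached that p-value. Of all tested genes, 49% were higher and 20.2% reached that p-value in this comparison. *Ppif*, which encodes cyclophilin D of the mitochondrial matrix, was at 43.7, 38.4, 34.5 and 50.9 CPM in Ctrl, and at 58.0 and 63.4 CPM in LSD1skm-/- muscle. Every LSD1skm-/- value was above every Ctrl value, and the library labelled Ctrl replicate 4 again came nearest. With all libraries, groups did not overlap for 17.8% of all tested genes, in either direction. On the log2 scale the difference was 0.54 with all libraries (standard error 0.16, adjusted p = 0.557) and 0.64 without that library (standard error 0.12, adjusted p = 0.0275), both in edgeR's test. The mitochondrial creatine kinase gene *Ckmt2* was at 0.45, and the aspartate aminotransferase genes *Got2* and *Got1* were at 0.40 and 0.37, with unadjusted p-values from 0.0145 to 0.0313. *Mfn2*, which encodes a protein of mitochondrial fusion, was at -0.32, and at -0.39 without the library labelled Ctrl replicate 4 (unadjusted p = 0.0127, adjusted p = 0.120, edgeR's test).
Of 26 PPAR target genes, 24 were tested, and 14 were higher and 10 lower, with a median of 0.02. With all libraries 0 reached an unadjusted p-value of 0.05 in edgeR's test, against 8.9% of all tested genes. Without the library labelled Ctrl replicate 4 only *Plin2*, a lipid droplet coat gene, did, at 0.30 on the log2 scale (unadjusted p = 0.0418, adjusted p = 0.227). In that comparison 15 of the 24 were higher, with a median of 0.07, and 20.2% of all tested genes reached an unadjusted p-value of 0.05.

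Of 20 NRF1 target genes, 16 were higher and 4 lower, with a median of 0.09, and 0 reached an unadjusted p-value of 0.05 in edgeR's test in either comparison. Of all tested genes, 8.9% did so with all libraries and 20.2% without the library labelled Ctrl replicate 4. Leaving out that library left 15 higher, with a median of 0.07. The largest differences were *Uqcrh* at 0.19 and *Cox5a* at 0.18, subunits of respiratory chain complexes III and IV, with LSD1skm-/- replicate 2 the highest library for both (366 and 668 CPM). The median of the NRF1 targets turned to -0.05 without LSD1skm-/- replicate 2 and was 0.23 without LSD1skm-/- replicate 1, so it followed single libraries.
Genes that keep and transcribe mitochondrial DNA, the process TFAM serves, were 20 in number, of which 18 were tested. With all libraries 11 were higher and 7 lower, with a median of 0.06. An unadjusted p-value of 0.05 was reached by 3 (edgeR's test), all higher, against 8.9% of all tested genes. Leaving out the library labelled Ctrl replicate 4 left 10 higher, with a median of 0.02, and 3 at that p-value, against 20.2% of all tested genes. *Mterf2*, of the mitochondrial transcription termination factor family, was at 13.1, 12.3, 11.7 and 14.5 CPM in Ctrl and at 18.4 and 18.9 CPM in LSD1skm-/- muscle. These groups did not overlap, as for 17.8% of all tested genes with all libraries. The difference on the log2 scale was 0.53 with all libraries (standard error 0.12, adjusted p = 0.557) and 0.59 without the library labelled Ctrl replicate 4 (adjusted p = 0.0252), both in edgeR's test. The mitochondrial exonuclease gene *Mgme1* was at 0.40 and 0.42 in these comparisons (adjusted p = 0.0554 in the second), and *Mterf3* at 0.26 and 0.28 (adjusted p = 0.189 in the second, edgeR's test). *Mterf2* and *Ppif* were the only genes of the 6 lists to pass an adjusted p-value of 0.05 without the library labelled Ctrl replicate 4. They were 1 of 18 and 1 of 26 tested genes in their lists, against 5.39% of all tested genes, and the other 4 lists had none.
Of the 13 messenger RNAs encoded by mitochondrial DNA, 7 had enough reads to be tested, and 6, among them *mt-Co2* and *mt-Co3*, had means of 0.5 to 11.8 reads per library, far under the 8830 or more of the others. Only uniquely aligned reads were kept by the authors, and whether that bears on these low counts was not tested. The median of the 7 was -0.03 on the log2 scale (-0.06 without the library labelled Ctrl replicate 4), and *mt-Nd6*, the one on the light strand, was at 0.31 (unadjusted p = 0.0483, adjusted p = 0.557, edgeR's test). The summed CPM of the 13 was 107700 to 144600 in Ctrl, and 120600 and 124900 in LSD1skm-/- muscle, inside the Ctrl range.

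**Figure D5:**
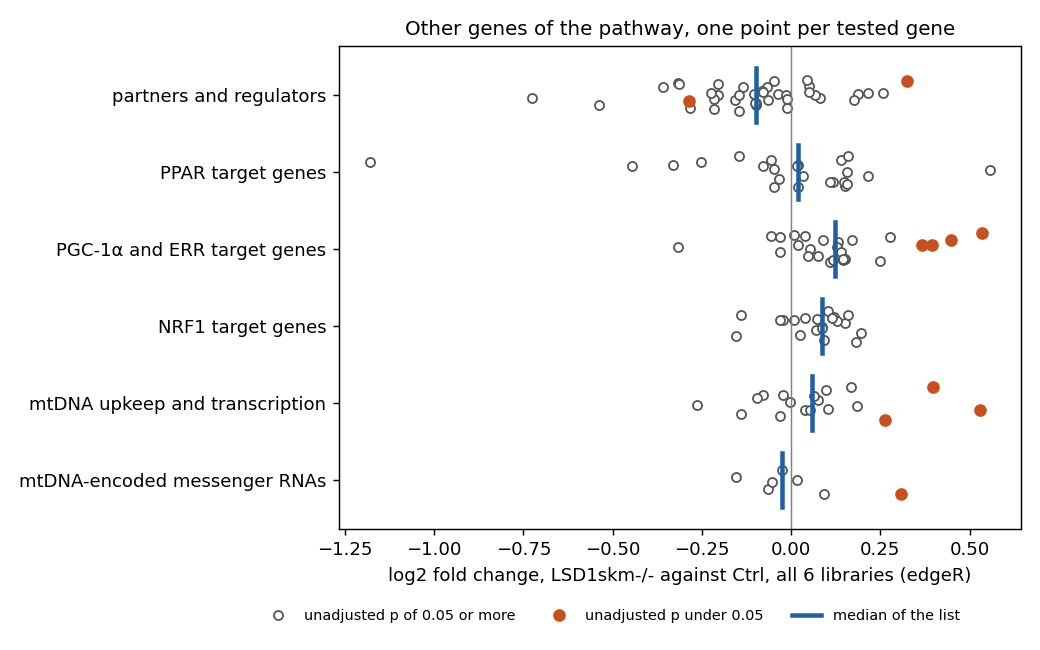
Log2 fold change of LSD1skm-/- against Ctrl muscle (horizontal axis, all 6 libraries, edgeR) of the tested genes in 6 lists, with the median of each list as a blue bar. Filled points have an unadjusted p-value under 0.05, and the medians lie between -0.10 (partners and regulators) and 0.12 (PGC-1α and ERR target genes).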

How the data were processed

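Single-end reads of polyA RNA were sequenced, mapped to mm10 and kept where they aligned uniquely, and the authors deposited whole-number counts of reads per gene, without normalization. Their text names htseq-count for mapping and HOMER for quantification, and the aligner and annotation are not given in the sources used here. Members were found by symbol. The 9 genes, the gene lists and the motifs were chosen with earlier results of these data known. The 11364 rows whose counts averaged more than 50 were fitted together, with labels as deposited and group as the only term, by the quasi-likelihood test of edgeR 4.0.16 in R 4.3.3, after TMM scaling and with Benjamini-Hochberg adjustment. Standard errors were derived from the fold change and the F statistic, and 95% intervals from them. The test was tried on simulated data with known changes. With 4 against 2 libraries, an exact permutation test of a single value cannot go below 0.0667, so none was used for the groups. Nothing in the labels says that libraries are from separate mice, and p-values measure the spread between these libraries. Counts were divided by all annotated exon bases (GENCODE, GRCm38) for levels per kilobase. Named genes were the members, *Kdm1a*, and, in each list, up to 6 genes with an unadjusted p-value under 0.05 with all libraries or without the library labelled Ctrl replicate 4 (otherwise the 2 largest changes), with the 3 genes most correlated with 4 members. Alternatives were DESeq2 1.42.0, other scalings and filters, a replicate block and each library left out. Protein sequences were not used here.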

Additional observations from a re-analysis of the deposited data

Results flagged for a closer look

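*Kdm1a*, the targeted gene, was the only one of the 9 members, 6 lists and *Kdm1a* to pass Dixon's outlier limit, on the log2 scale. On the log2 scale the library labelled Ctrl replicate 4 lay apart from its nearest neighbor by 0.880 of the Ctrl range, above the 95% limit of Dixon's test for 4 values, and on the linear scale by 0.750, under that limit. Chance marks about 1 in 20 groups in this way. Among the members the widest gaps were 0.787 for *Esrrg*, from Ctrl replicate 3, and 0.746 for *Ppargc1a*, 0.736 for *Nrf1* and 0.671 for *Ppard*, from the library labelled Ctrl replicate 4, all under the limit.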

How the results depend on the processing

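With 2 LSD1skm-/- libraries, 1 of which sets the direction of the coactivators and *Ppara*, the number of libraries limits the precision of the members. *Esrrb* was higher and *Nrf1* lower in LSD1skm-/- muscle under all 13 alternatives (0.52 to 0.75 and -0.12 to -0.04 on the log2 scale). The log2 fold change of *Esrrb* was 0.62 without LSD1skm-/- replicate 1 and 0.59 without LSD1skm-/- replicate 2. Each of these fits leaves only 1 LSD1skm-/- library. Without LSD1skm-/- replicate 1, *Ppargc1a* turned to -0.42, *Ppargc1b* to -0.25, *Esrrg* to -0.13 and *Ppara* to -0.35, and without Ctrl replicate 3 *Ppard* turned to 0.0279 (-0.18 without the library labelled Ctrl replicate 4). Without LSD1skm-/- replicate 2 the values were 0.91, 0.53, 0.60 and 0.96 (*Ppargc1a*, *Ppargc1b*, *Esrrg*, *Ppara*). Leaving out each library gave 340 to 1724 genes past an unadjusted p-value of 0.05 and a fold above 1.3 or below 0.77 (717 with all), 0 to 612 with an adjusted p-value under 0.05 (0 with all), and 0 to 2 members with an unadjusted p-value under 0.05 (1 with all). The medians ran from -0.21 to 0.0136 for partners and regulators and from -0.0454 to 0.23 for NRF1 targets. After adjustment DESeq2 called 46 genes. With no filter beyond 1 count there were 149, and 1909 past both thresholds, over all 27041 rows. The labels do not say whether the replicate numbers pair the libraries. The deviations of same-numbered libraries from their group means correlated at -0.233 and -0.033. With 2 LSD1skm-/- libraries these deviations mirror each other, so the correlations cannot settle whether libraries were paired. With the replicate block, 1668 genes passed both thresholds and 632 had an adjusted p-value under 0.05. An unadjusted p-value under 0.05 was found for 2 members, *Esrrb* and *Esrrg*, and for *Esrrb* also after adjustment (0.0497, against 0.557 without the block). *Esrra* was at -0.0042 and *Tfam* at -0.03. The LSD1skm-/- libraries are replicates 1 and 2 only. Ctrl replicate 3 and the library labelled Ctrl replicate 4 therefore do not enter the group difference of the block fit. In each case the cause was not tested.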

Other observations

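Genes with the NRF1 core in a RefSeq promoter, the motif seen in *Ppara* and *Esrra*, were also counted over the whole table, a choice made after the data were seen. Of these, 544 were tested. Their median log2 fold change was -0.02, and 46.9% were higher in LSD1skm-/- muscle, against 48.6% of all tested genes. An unadjusted p-value under 0.05 with all 6 libraries was found for 4.96% of them (17 higher and 10 lower), against 8.9% of all tested genes. Without the library labelled Ctrl replicate 4, 2.57% had an adjusted p-value under 0.05 in edgeR's test (10 higher and 4 lower), against 5.39% of all tested genes. Whether these shares differ was not tested.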
